A study of Mus musculus with 12 samples.

Results

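The genes described here are 9 that encode the transcription factors on which hepatocyte identity rests: Hnf4a, Foxa1, Foxa2, Foxa3, Cebpa, Cebpb, Nr5a2, Onecut1 and Prox1. They were chosen by name and found through their Ensembl identifiers among the 54839 features of the deposited table, and all 9 passed the filter on low counts. The samples were hepatocytes sorted from male p16-Tom mice on a C57BL/6 background, heterozygous for a tamoxifen-inducible Cre recombinase under p16 control (p16-CreERT2) and for a tdTomato reporter that Cre switches on (R26-CAG-LSL-tdTomato-WPRE). All mice, controls included, received tamoxifen (80 mg/kg). For 4 weeks they were injected either with CCl4 (carbon tetrachloride, a hepatotoxin that causes fibrosis) in corn oil at 1 mL/kg, or with corn oil alone. The tdTomato-positive (Tom+) and tdTomato-negative (Tom-) hepatocytes of each treatment gave 4 groups of 3 libraries. Because Cre acts at the time of tamoxifen, Tom+ marks cells in which p16 was on then, and the mark stays afterwards.

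Hepatocyte identity is kept by a small set of factors that bind many liver genes together and also bind each other's promoters. HNF4A, a nuclear receptor, drives lipoprotein, clotting and bile acid genes. The FOXA proteins open liver chromatin for other factors, the C/EBP proteins drive metabolic and acute-phase genes, LRH-1 (the product of Nr5a2) drives bile acid and cholesterol genes, HNF6 (the product of Onecut1) acts in liver and bile duct development, and PROX1 is a homeodomain factor that acts with HNF4A and LRH-1, often as a repressor.

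Depth was 37568584 to 75331424 counts per library. The deposited table also holds 1 added feature that is no mouse gene and was taken here as the reporter. It was at 1225 to 1546 CPM (the usual scaling of counts to library size) in 5 of the 6 Tom+ libraries and at 120 to 263 CPM in 5 of the 6 Tom- libraries. The library labelled Tom- oil replicate 1 was at 1794 CPM and the library labelled Tom+ oil replicate 2 at 135 CPM, so the reporter went against both labels. The counts of calls among the 9 genes and most calls named from the gene lists are also given without these 2 oil libraries. Where both fractions were summed, oil replicates 1 and 2 were then left out in both fractions. This left 1 oil pair against 3 CCl4 pairs. Cdkn2a, the gene that encodes p16, was at 0 to 0.116 CPM in the oil libraries. There 3 counts correspond to 0.0433 to 0.0791 CPM, and in the CCl4 libraries to 0.0369 to 0.0829 CPM. In CCl4 it was at 0.455, 0.221 and 0.444 CPM in Tom- and at 0.0739, 0 and 0.0209 CPM in Tom+. The gene was not called between these fractions (edgeR adjusted p = 0.0624), and it was called higher in Tom- CCl4 than in Tom- oil (adjusted p = 0.0342). The paper's qPCR on sorted cells after CCl4 went the other way, with more p16 mRNA in the Tom+ fraction. The paper took those qPCR cells 10 days after the last CCl4 dose and refers the RNA-seq cells to a separate schedule. The time after CCl4 may therefore differ between them. The paper also cautions, for the human gene, that CDKN2A codes for more than p16. The few counts here are of the whole gene, so they cannot decide the level of p16 itself. The summed level of 7 hepatocyte markers was 93487 to 123983 CPM in Tom- oil and 130486 to 142253 CPM in Tom- CCl4. In Tom+ it was 111275 to 122255 CPM in oil and 101289 to 111099 CPM in CCl4. The CCl4 libraries were thus above the oil libraries in Tom- and below them in Tom+, without overlap. The summed cholangiocyte markers (7 genes) were at 19.4 to 19.9 and 27.8 to 32.6 CPM in Tom- oil and CCl4, and at 21.3 to 26.9 and 25.4 to 32.2 CPM in Tom+. The summed stellate cell markers (10 genes) were at 9.07 to 25.2 CPM in oil and at 50.9 to 104 CPM in CCl4, and the summed endothelial markers (8 genes) at 111 to 206 CPM in oil, 282 to 305 CPM in Tom- CCl4 and 146 to 198 CPM in Tom+ CCl4. The summed macrophage markers (10 genes) were at 15.6 to 83.5 CPM in Tom- oil and 102 to 126 CPM in Tom- CCl4. In Tom+ they were at 25.3 to 118 CPM in oil and 62.6 to 182 CPM in CCl4. The stellate markers were thus without overlap between treatments, and the cholangiocyte, endothelial and macrophage markers only in Tom-. The part of these markers in the results below was not tested. In bulk samples, fewer cells that express a gene and less RNA of it per cell cannot be told apart.

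The 9 genes lie on 5 chromosomes (mm10). Hnf4a spans chr2:163506808-163572910 on the plus strand, Foxa3 chr7:19013284-19023538 on the minus strand, Onecut1 chr9:74861921-74891781 on the plus strand and Prox1 chr1:190118035-190170714 on the minus strand, and the span of each of the 9 genes is that of GENCODE vM21. Promoter sequences are shown for 3 genes because their levels varied together or in opposite directions over the libraries (Hnf4a with Foxa3, and both against Onecut1), and short stretches are shown for the only matches to the searched motifs. The sequences are from RefSeq on GRCm38.p6 (the assembly mm10 stands for), are written 5′ to 3′ on the strand of the gene, and end at the base before the RefSeq start. Of the RefSeq starts of Hnf4a, the downstream one is shown, which is used in adult liver. The bases just after this start were not found in a GENCODE vM21 transcript of Hnf4a, whereas those after the upstream start were.
Hnf4a, chr2:163546905-163547154: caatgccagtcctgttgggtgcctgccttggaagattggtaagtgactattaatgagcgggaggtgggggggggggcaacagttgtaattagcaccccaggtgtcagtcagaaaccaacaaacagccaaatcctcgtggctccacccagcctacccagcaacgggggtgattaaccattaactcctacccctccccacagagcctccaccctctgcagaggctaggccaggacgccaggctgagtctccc
Foxa3, chr7:19023540-19023789: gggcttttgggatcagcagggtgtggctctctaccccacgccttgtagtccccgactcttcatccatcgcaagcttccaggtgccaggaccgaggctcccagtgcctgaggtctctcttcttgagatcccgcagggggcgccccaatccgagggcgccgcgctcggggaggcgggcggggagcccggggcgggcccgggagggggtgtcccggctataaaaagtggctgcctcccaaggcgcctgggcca
Onecut1, chr9:74861671-74861920: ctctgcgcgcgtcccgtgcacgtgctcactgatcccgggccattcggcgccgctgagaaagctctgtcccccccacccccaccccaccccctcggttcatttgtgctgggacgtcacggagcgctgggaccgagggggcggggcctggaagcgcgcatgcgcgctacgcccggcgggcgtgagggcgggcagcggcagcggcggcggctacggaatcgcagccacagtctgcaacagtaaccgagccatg
In the 250 bases before each of the 14 RefSeq starts of the 9 genes, 5 short motifs were searched on both strands: TGTTTAC for FOXA, TTGCNNAA for C/EBP, CAAAGTC for HNF4, GTTAATNAT for HNF1 and CAAGGTCA for LRH-1. None of them was found in the 3 sequences above. A match was found at 3 of the 14 starts, shown with the matched letters in capitals.
Foxa1, FOXA motif on the opposite strand, chr12:57546234-57546264: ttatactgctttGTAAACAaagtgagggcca
Nr5a2 upstream start, HNF1 motif, chr1:136960664-136960696: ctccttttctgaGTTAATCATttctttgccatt
Nr5a2 downstream start, C/EBP motif on the opposite strand, chr1:136953854-136953880: tgttttgTTTTGCAAagcttggtctac
Over 32841 RefSeq promoters, the same window held the FOXA motif in 3.17%, the C/EBP motif in 9.57%, the HNF4 motif in 3.84%, the HNF1 motif in 0.737% and the LRH-1 motif in 1.33%. A match is a description of the letters only.

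Compared per length, the 9 genes kept nearly the same order in every library. In TPM (counts per length, scaled to the same sum in each library), Hnf4a was the highest at 358 ± 55.4 (SD, n = 12), followed by Cebpa at 240 ± 45.8 and Cebpb at 85.8 ± 15.4, and these ranks were the same in each of the 12 libraries. Foxa3 (37.6 ± 9.9 TPM), Foxa2 (28.9 ± 2.38), Prox1 (28.2 ± 8.5) and Nr5a2 (24.8 ± 4.01) came next, and neighbours among these 4 did not differ beyond their spread, since they exchanged ranks 4 to 7 between libraries. Foxa1 (11.98 ± 1.85 TPM) and Onecut1 (8.85 ± 3.66 TPM) exchanged ranks 8 and 9. Among the 17121 genes tested, the mean TPM of Hnf4a stood at percentile 98.1 and that of Onecut1 at percentile 61.3.

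**Figure D1:**
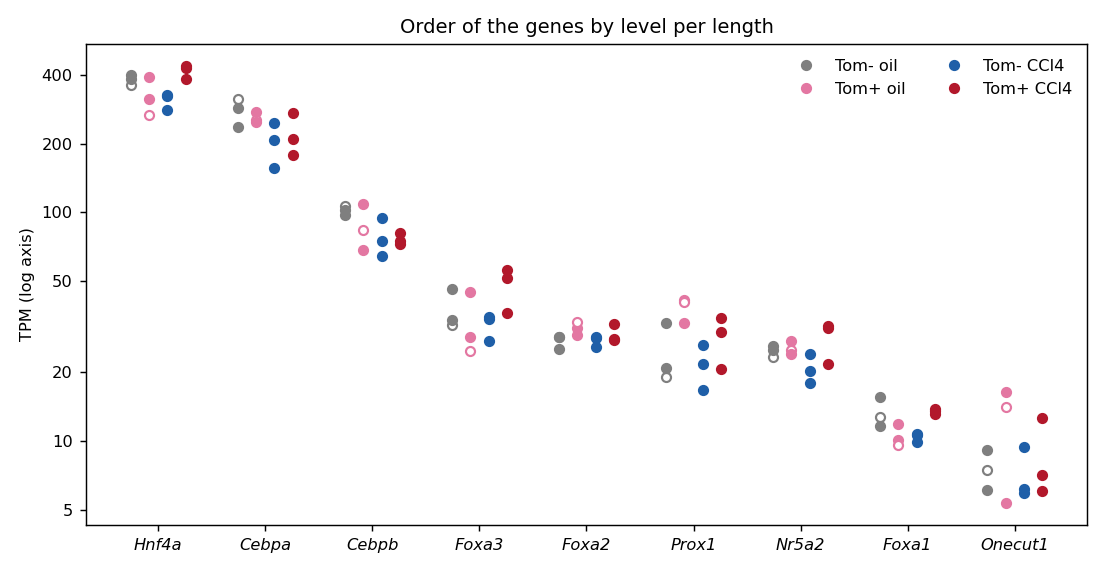
Level per length (TPM, log axis) of the 9 genes in the 12 libraries, with genes ordered by their mean; 1 point is 1 library, colours give the group, and open points are the 2 oil libraries whose reporter went against the label. Hnf4a, Cebpa and Cebpb occupy the first 3 ranks in every library, whereas Foxa3, Foxa2, Prox1 and Nr5a2 overlap.

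The genes also differed in how much they varied among the 12 libraries. On the log2(CPM + 1) scale, the SD was 0.13 for Foxa2 and 0.155 for Nr5a2, and 0.402 for Prox1 and 0.489 for Onecut1, beside a median of 0.173 over 7757 tested genes with a mean of at least 10 CPM. By SD, Foxa2 stood at percentile 22.9 of these genes, Nr5a2 at 39.4, Foxa1 at 51.5, Hnf4a at 61.5, Cebpb at 83.6, Cebpa at 84.2, Foxa3 at 88.6, Prox1 at 92.4 and Onecut1 at 95.1. The highest library exceeded the lowest by 1.36-fold for Foxa2, 1.5-fold for Hnf4a and 2.85-fold for Onecut1. Much of this spread lay between libraries of 1 group, and for Onecut1 the highest (27.8 CPM) and the lowest (9.74 CPM) were both labelled Tom+ oil.

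To ask whether CCl4 treatment changed the expression of these factors, CCl4 was compared with oil in each fraction and in the sum of both fractions of the same number. None of the 9 genes passed the thresholds (an adjusted p under 0.05 together with a change of over 0.75 on the log2 scale, by edgeR's quasi-likelihood test) in Tom-, in Tom+ or in the summed fractions. Over all genes tested, 7.92% passed in Tom-, 5.24% in Tom+ and 4.78% in the summed fractions. DESeq2 and limma-voom also called 0 of the 9 in each of the 3 comparisons. At an unadjusted p under 0.05, edgeR gave 1 gene in Tom- (Cebpa), 3 in Tom+ (Foxa2, Cebpa and Prox1) and 3 in the summed fractions (Cebpa, Cebpb and Prox1), and each of these estimates was below 0. Over all tested genes these shares were 31.5%, 24.4% and 26.2%. By adjusted p alone, DESeq2 gave 0, 1 and 3 of the 9 genes, beside 20.7%, 13.4% and 14.8% of all tested genes, and edgeR and limma-voom gave 0. The intervals bound what was seen: the 95% interval lay within ±0.75 for 8 of the 9 genes in Tom-, 6 in Tom+ and 8 in the summed fractions. Without the 2 doubted oil libraries, 0 of the 9 genes were called in each of the 3 comparisons.

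Hnf4a had the highest level of the 9 genes in each group. It was at 772, 769 and 799 CPM in Tom- oil, 619, 554 and 834 CPM in Tom+ oil, 604, 698 and 748 CPM in Tom- CCl4, and 697, 802 and 834 CPM in Tom+ CCl4. In Tom- all 3 CCl4 libraries were below all 3 oil libraries, whereas in Tom+ the groups overlapped. Groups without overlap were frequent over all tested genes (36.0% in Tom- and 29.3% in Tom+). The log2 fold change of CCl4 over oil was -0.19 (SE 0.138, edgeR adjusted p = 0.368) in Tom- and 0.22 (SE 0.138, adjusted p = 0.369) in Tom+, and it was 0.04 (95% interval -0.22 to 0.29) in the summed fractions. The antisense transcript Hnf4aos, which overlaps the 5′ part of Hnf4a on the other strand, was at 0.196 to 1.24 CPM.

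**Figure D2:**
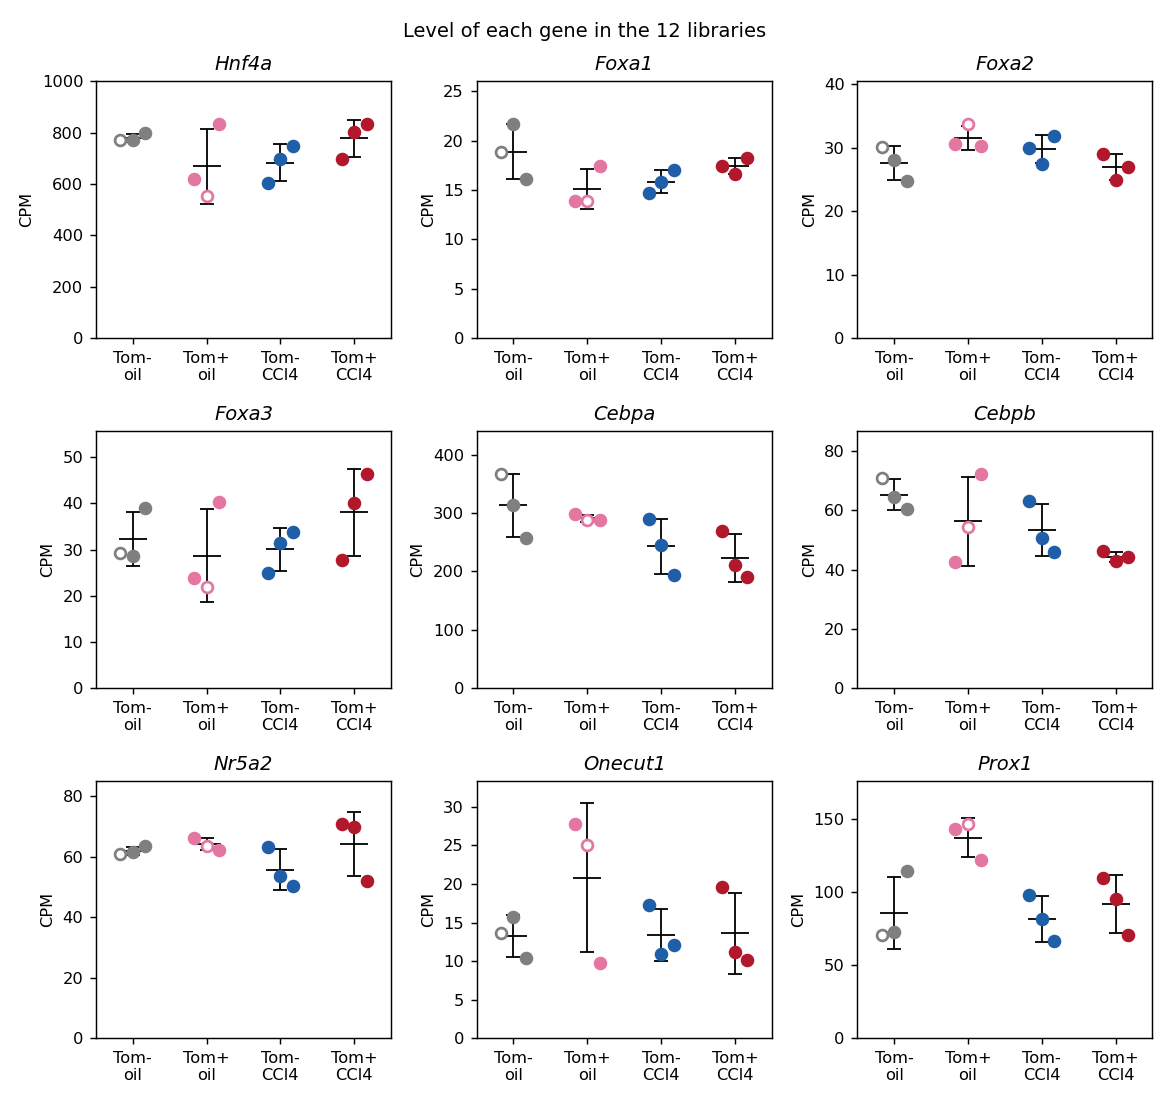
Level of each gene (CPM, linear axis from 0) in the 4 groups; points are libraries, left to right replicates 1 to 3, bars are the mean ± SD (n = 3), and open points are the 2 oil libraries whose reporter went against the label. Cebpa in Tom+ sits at 287 to 298 CPM in oil and 191 to 270 CPM in CCl4, whereas the Hnf4a libraries lie between 554 and 834 CPM.

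The C/EBP genes had estimates below 0 in both fractions. Cebpa, which encodes C/EBPα, a driver of metabolic genes and of growth arrest in hepatocytes, was at 367, 314 and 258 CPM in Tom- oil and 289, 245 and 194 CPM in Tom- CCl4. In Tom+ it was at 298, 288 and 287 CPM in oil and 270, 210 and 191 CPM in CCl4. The groups overlapped in Tom- and did not overlap in Tom+. The log2 fold change was -0.37 (SE 0.162, edgeR adjusted p = 0.14) in Tom-, -0.38 (SE 0.162, adjusted p = 0.166) in Tom+ and -0.37 (95% interval -0.68 to -0.06, adjusted p = 0.126) in the summed fractions. Without the 2 doubted oil libraries the estimate was -0.23 (edgeR adjusted p = 0.462) in Tom-, -0.38 (adjusted p = 0.275) in Tom+ and -0.23 (adjusted p = 0.672) in the summed fractions, the last from 1 oil pair against 3 CCl4 pairs. The antisense feature Gm45091, which overlaps the start of Cebpa, was at 5.41 to 14.3 CPM.

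Cebpb, which encodes C/EBPβ, a factor of the acute-phase and regenerative response, was at 70.7, 64.4 and 60.3 CPM in Tom- oil, 42.5, 54.2 and 72.2 CPM in Tom+ oil, 63.1, 50.7 and 46.0 CPM in Tom- CCl4, and 46.2, 42.8 and 44.2 CPM in Tom+ CCl4. The CCl4 and oil libraries overlapped in both fractions, and the Tom+ CCl4 libraries were the closest to each other. The summed log2 fold change was -0.32 (95% interval -0.54 to -0.09), and its edgeR adjusted p of 0.0853 was the lowest among the 9 genes in the 3 treatment comparisons. The summed estimate without the oil pairs of the 2 doubted libraries was -0.46, from 1 oil pair against 3 CCl4 pairs. Tmem189, a protein-coding gene on the other strand whose span overlaps Cebpb, was at 20.4 to 41.3 CPM, and its log2 fold change of -0.55 (SE 0.0998, edgeR adjusted p = 0.0154) in the summed fractions passed the p but not the fold threshold. In 66.7% of the libraries Cebpb had a count with a fraction, and how reads were divided between overlapping features is not given in the sources used here.

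The 3 libraries with the highest Prox1 were those labelled Tom+ oil. Prox1 was at 70.7, 72.7 and 114 CPM in Tom- oil, 143, 147 and 122 CPM in Tom+ oil, 97.9, 81.6 and 66.5 CPM in Tom- CCl4, and 110, 95.4 and 70.6 CPM in Tom+ CCl4. The Tom+ oil libraries overlapped none of the other groups. The log2 fold change of CCl4 over oil in Tom+ was -0.58 (95% interval -1.04 to -0.12), with an edgeR adjusted p of 0.112, and in Tom- it was -0.07 (95% interval -0.53 to 0.39, adjusted p = 0.857). Without the 2 doubted oil libraries, the estimate was -0.52 (edgeR adjusted p = 0.274) in Tom+ and -0.19 (adjusted p = 0.683) in Tom-. Its antisense neighbour Prox1os was at 2.38 to 6.88 CPM and was lower in CCl4 by adjusted p in both fractions (log2 fold change -0.63, SE 0.185, adjusted p = 0.0341 in Tom- and -0.68, SE 0.181, adjusted p = 0.0308 in Tom+, edgeR), without reaching the fold threshold.

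Onecut1 was the lowest and most variable of the 9 genes. It was at 13.7, 15.7 and 10.4 CPM in Tom- oil, 27.8, 25.04 and 9.74 CPM in Tom+ oil, 17.2, 10.9 and 12.1 CPM in Tom- CCl4, and 19.7, 11.2 and 10.1 CPM in Tom+ CCl4. All groups overlapped. The summed log2 fold change was -0.38 with a 95% interval of -1.30 to 0.54 (edgeR adjusted p = 0.568), and without the 2 doubted oil libraries it was 0.44, of the opposite sign. The lincRNA Gm20649 covers nearly the whole span of Onecut1 on the same strand (chr9:74848463-74891476) and was at 6.41 to 14.6 CPM, so that the level of Onecut1 is uncertain.

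The FOXA genes and Nr5a2 differed in how closely their libraries agreed. Foxa2 was at 30.1, 28.1 and 24.8 CPM in Tom- oil, 30.6, 33.8 and 30.4 CPM in Tom+ oil, 30.0, 27.5 and 31.9 CPM in Tom- CCl4, and 29.0, 24.9 and 26.9 CPM in Tom+ CCl4. In Tom+ its CCl4 libraries were all below its oil libraries, by a log2 fold change of -0.23 (95% interval -0.44 to -0.02, edgeR adjusted p = 0.17). Foxa3 was at 29.2, 28.7 and 38.9 CPM in Tom- oil, 23.8, 21.9 and 40.2 CPM in Tom+ oil, 24.9, 31.3 and 33.8 CPM in Tom- CCl4, and 27.8, 40.0 and 46.3 CPM in Tom+ CCl4, and its CCl4 and oil libraries overlapped in both fractions. Foxa1 ranged from 13.9 to 21.7 CPM and Nr5a2 from 50.3 to 70.8 CPM over the 12 libraries. In the summed fractions the 95% interval of the log2 fold change was -0.19 to 0.19 for Foxa1, -0.27 to 0.12 for Foxa2, -0.33 to 0.69 for Foxa3 and -0.31 to 0.17 for Nr5a2.

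**Figure D3:**
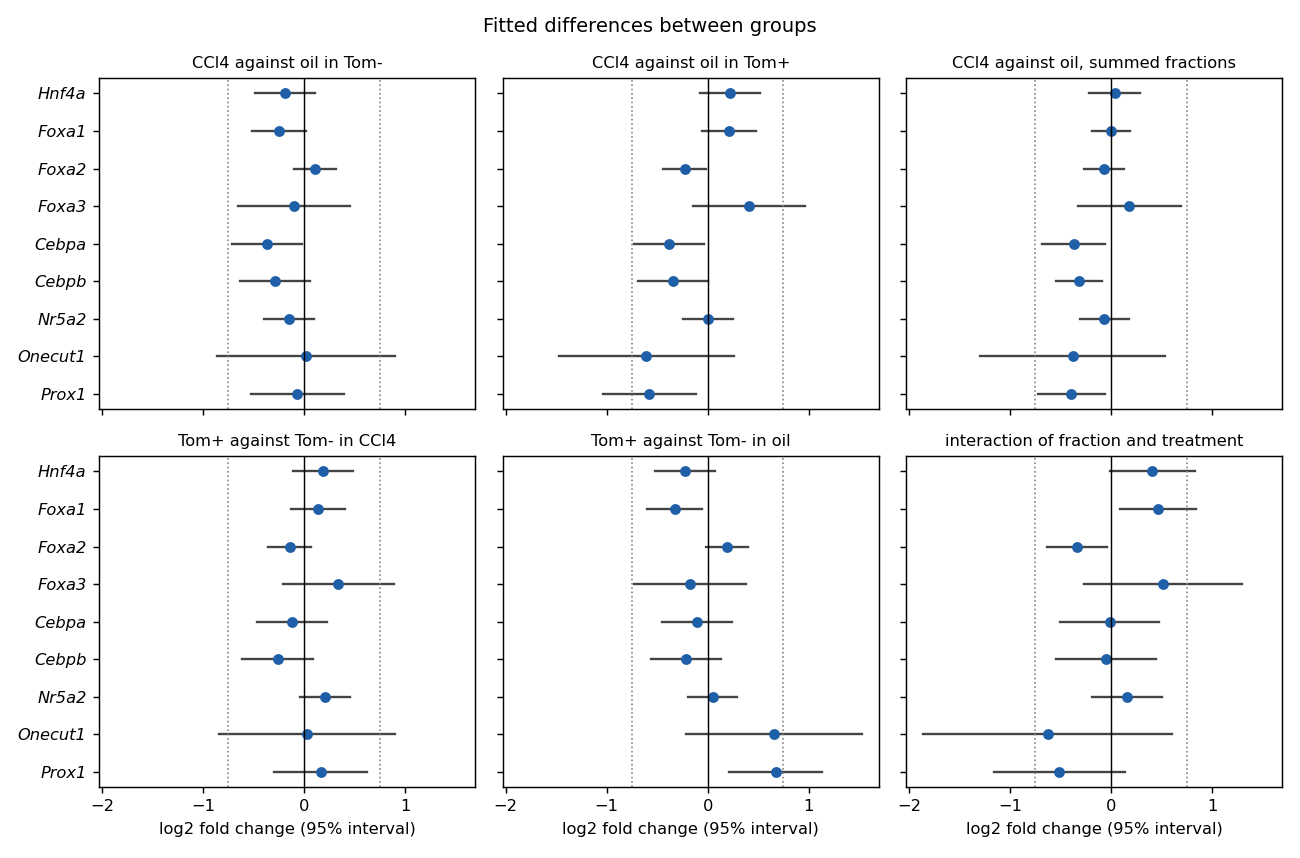
Log2 fold change (point) with its 95% interval (line) from edgeR for each gene in the 6 comparisons; dotted lines mark ±0.75. None of the 9 genes passed both thresholds in any panel, and Onecut1 has the widest interval in each.

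The second question was whether Tom+ differed from Tom- hepatocytes. Between Tom+ and Tom- in CCl4, 0 of the 9 genes passed both thresholds with edgeR, DESeq2 or limma-voom, beside 1.96% of all tested genes with edgeR, and 0 had an unadjusted p under 0.05, beside 22.8% of all tested genes. The 95% interval lay within ±0.75 for 7 of the 9. In oil, 0 of the 9 genes and 0% of all tested genes passed by edgeR, DESeq2 called 0 of the 9 and limma-voom 0, and 2 of the 9 had an unadjusted p under 0.05 (Foxa1, with a log2 fold change of -0.33, and Prox1, with 0.68). Over all genes in oil, 7.0% (1198 of 17121) had an unadjusted p under 0.05. Without the 2 doubted oil libraries, 0 of the 9 were called in both treatments. Groups did not overlap for 28.7% of all tested genes in CCl4 and 11.7% in oil. Of the 9 genes, none was free of overlap in CCl4, and Foxa2 and Prox1 were in oil, both higher in Tom+.

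Same-numbered Tom+ and Tom- libraries varied together, and ratios within these pairs were therefore examined. In CCl4, Hnf4a was 1.15, 1.15 and 1.12 times as high in Tom+ as in Tom-, and Foxa3 1.12, 1.28 and 1.37 times. Of the 9 genes, 8 had the same sign in all 3 CCl4 pairs, with Hnf4a, Foxa1, Foxa3, Nr5a2 and Prox1 higher in Tom+ and Foxa2, Cebpa and Cebpb lower, and 54.7% of all tested genes had 1 sign in these 3 pairs. With the replicate block (a term for each pair), the log2 fold change of Foxa3 in CCl4 was 0.32 (SE 0.0934, edgeR adjusted p = 0.03), which passed the p but not the fold threshold, where 17.7% of all tested genes had an adjusted p under 0.05. For Hnf4a it was 0.19 (SE 0.0867, edgeR adjusted p = 0.155). In an alternative chosen after seeing the data, with the replicate block and without the oil pairs of the 2 doubted libraries, Hnf4a (0.20, edgeR adjusted p = 0.0242), Foxa3 (0.33, adjusted p = 0.00846) and Cebpb (-0.25, adjusted p = 0.0355) passed the p but not the fold threshold in CCl4. The share of all genes at an adjusted p under 0.05 was not computed for this alternative. With all pairs in the replicate block the estimates of Hnf4a, Foxa3 and Cebpb were 0.19, 0.32 and -0.25. On the TPM scale, which carries no TMM factor, the median log2 ratio of Tom+ to Tom- in CCl4 over tested genes with a mean of at least 10 CPM was 0.27, beside 0.06 on the CPM scale. There the CCl4 libraries of Hnf4a (281 to 327 TPM in Tom- and 383 to 437 TPM in Tom+), Foxa1 (9.94 to 10.8 and 13.1 to 13.9 TPM) and Foxa3 (27.5 to 35.0 and 36.2 to 56.1 TPM) did not overlap, as was the case for 39.4% of all tested genes. Cebpa, lower in Tom+ in all 3 CCl4 pairs by CPM, was 1.1, 1.01 and 1.15 times as high in Tom+ by TPM, and Foxa2 and Cebpb also lost their single sign.

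In oil the pairs differed among themselves. Prox1 was 2.03 and 2.02 times as high in Tom+ as in Tom- in pairs 1 and 2 and 1.07 times in pair 3, and Onecut1 2.02, 1.6 and 0.937 times. Pairs 1 and 2 each hold 1 of the doubted libraries. The reporter was high in both libraries of pair 1 (1794 CPM in Tom- and 1546 CPM in Tom+). It was low in both libraries of pair 2 (157 CPM in Tom- and 135 CPM in Tom+). Pairs 1 and 2 therefore do not set a high against a low reporter. The log2 fold change of Prox1 in oil was 0.68 (SE 0.211, edgeR adjusted p = 0.549). It was 0.49 (adjusted p = 0.884) without the 2 doubted libraries, and 0.07 from pair 3 alone with the replicate block, a value that rests on 1 library per fraction and carries no test in oil.

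**Figure D4:**
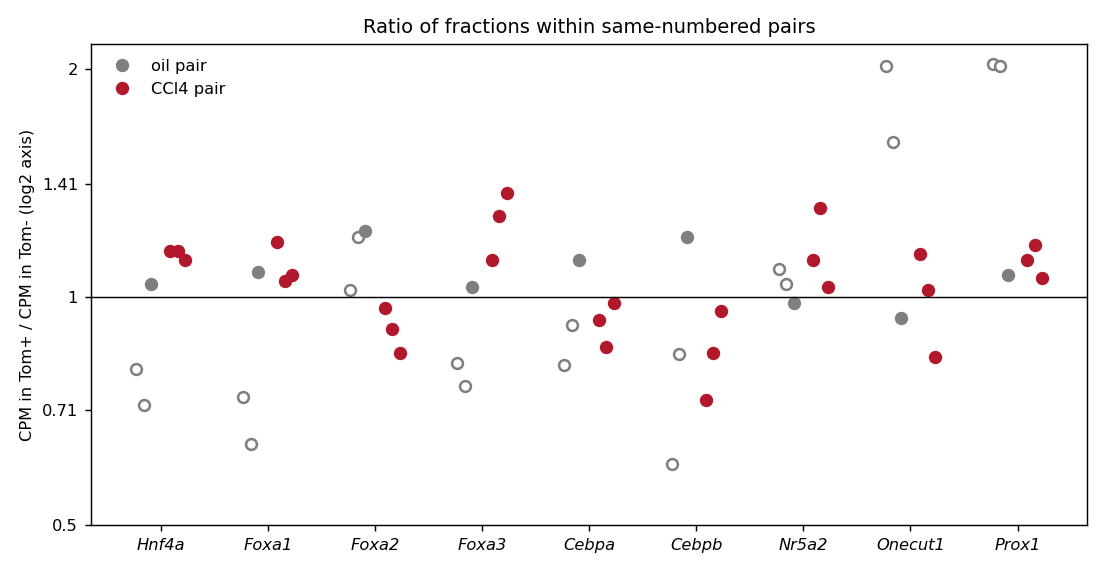
CPM in Tom+ divided by CPM in Tom- (log2 axis) within each same-numbered pair of libraries; grey points are oil pairs, red points CCl4 pairs, left to right pairs 1 to 3, and open points the 2 oil pairs that hold a library whose reporter went against the label. In CCl4 all 3 pairs of Hnf4a (1.12 to 1.15) and Foxa3 (1.12 to 1.37) lie above 1 and all 3 of Foxa2 (0.844 to 0.968) below it.

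The third question was whether the difference between fractions depended on treatment. For the interaction of fraction and treatment (the log2 fold change of Tom+ over Tom- in CCl4 minus that in oil), 0 of the 9 genes passed both thresholds with edgeR, DESeq2 or limma-voom, beside 1.17% of all tested genes with edgeR. At an unadjusted p under 0.05 there were 2, beside 18.6% of all tested genes, Foxa1 (0.46, SE 0.176, edgeR adjusted p = 0.183) and Foxa2 (-0.34, SE 0.139, adjusted p = 0.217). In all 3 CCl4 pairs Foxa2 was lower in Tom+ than in Tom- by CPM, and in all 3 oil pairs it was the other way round. Over all tested genes 32.8% had 1 sign in the 3 oil pairs, and 11.8% had 1 sign there and the opposite sign in the 3 CCl4 pairs. With the replicate block, Hnf4a (0.43, SE 0.123, edgeR adjusted p = 0.036) and Foxa3 (0.53, SE 0.132, adjusted p = 0.0196) passed the p but not the fold threshold, where 12.5% of all tested genes had an adjusted p under 0.05. With the replicate block and without the oil pairs of the 2 doubted libraries, where the oil part rests on 1 pair and the spread on the CCl4 pairs, the interaction was 0.15 for Hnf4a (adjusted p = 0.537), 0.30 for Foxa3 (adjusted p = 0.343) and 0.05 for Foxa1 (adjusted p = 0.941).

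Among the 12 libraries, Hnf4a and Foxa3 were high together. The highest Foxa3 libraries (46.3, 40.2 and 40.0 CPM) had Hnf4a at 834, 834 and 802 CPM, and the lowest (21.9 and 23.8 CPM) had Hnf4a at 554 and 619 CPM. Their log2(CPM + 1) values had a Pearson r of 0.898 and a Spearman rho of 0.937 (n = 12 libraries), r was 0.857 without the 2 libraries farthest from the median of Hnf4a, and it was 0.926 within groups. Foxa3 and Onecut1 had an r of -0.898 and a rho of -0.944, with an r of -0.88 without the 2 farthest and -0.96 within groups, and Hnf4a and Onecut1 had an r of -0.844 and a rho of -0.853. The 12 libraries come from 6 same-numbered pairs and are not independent within a pair. Over the 6 pair means, r was 0.97 and rho 0.886 for Hnf4a and Foxa3 (2-sided exact permutation p = 0.0167 and 0.0333) and r was -0.984 and rho -0.771 for Foxa3 and Onecut1 (exact permutation p = 0.0222 and 0.103). After adjustment over the 36 pairs of genes computed, these p-values were 0.267 and 0.445 for both relations, so that neither passed. Without the 2 pair means farthest from the median, r was 0.981 and -0.993 (n = 4).

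**Figure D5:**
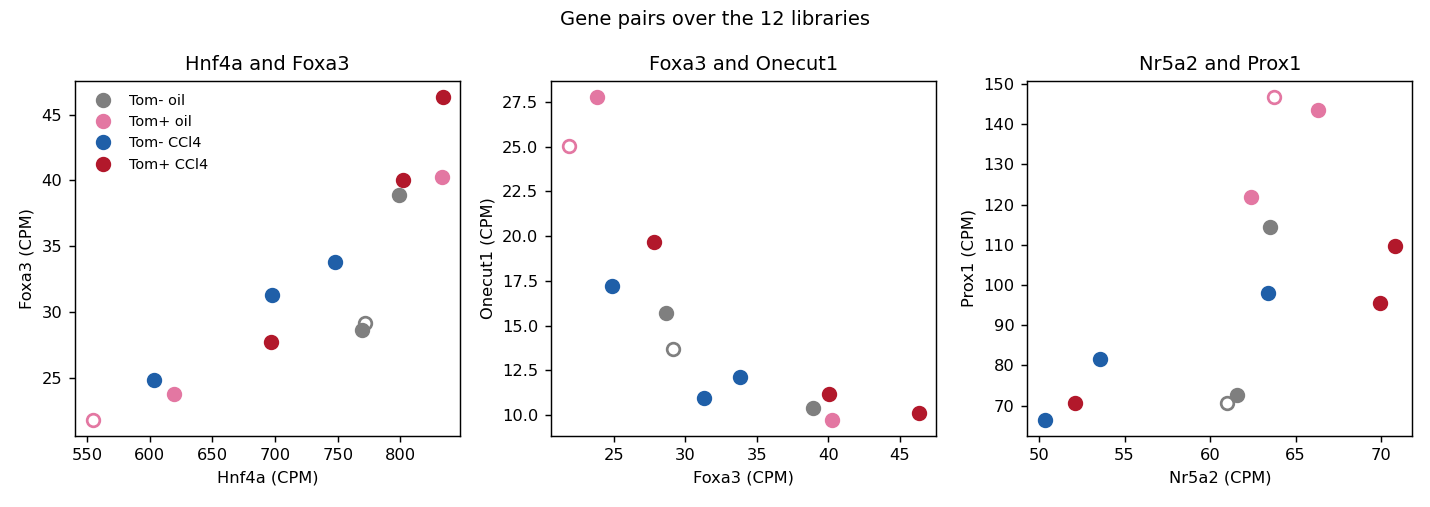
Levels (CPM) of 3 pairs of genes, with 1 point for each of the 12 libraries, colours for the groups and open points for the 2 oil libraries whose reporter went against the label; axes do not start at 0. Pearson r on the log2(CPM + 1) scale was 0.898 for Hnf4a with Foxa3, -0.898 for Foxa3 with Onecut1 and 0.653 for Nr5a2 with Prox1.

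Among 7756 other genes with a mean of at least 10 CPM, those whose pattern over the 12 libraries was most like each factor gene were named by Pearson r on the log2(CPM + 1) scale. They were Gne (0.953) and Zfand4 (0.941) for Hnf4a, Shld2 (0.97) and Camsap2 (0.944) for Foxa3, Rassf5 (0.954) and Sdf2l1 (0.949) for Cebpa, and Slc25a47 (0.876) and Nudcd3 (0.874) for Cebpb. For Foxa1 they were Fbxo21 (0.943) and Brap (0.919), for Nr5a2 Hlf (0.936) and Arfgef2 (0.928), for Onecut1 Zfp395 (0.918) and Sec24c (0.916), and for Prox1 Ahctf1 (0.974) and Bcar3 (0.93). Hlf encodes a PAR bZIP factor of the circadian output, and Sdf2l1 an endoplasmic reticulum protein. For Foxa2, the gene with the smallest spread, the most similar were the mitochondrially encoded mt-Atp8 (0.818) and mt-Cytb (0.804).

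The other transcription factors of the liver were also mostly without a call. Of 32 such genes, all tested, CCl4 against oil gave 1 higher in Tom- and 1 higher in Tom+, and 0 of the 31 tested were called in the summed fractions, where edgeR counted 0 by adjusted p alone as well. Their median log2 fold change was 0.01 in Tom- and -0.06 in Tom+, beside -0.15 and -0.23 for the 9 genes and 0.0046 and 0.0020 for all tested genes. The call in Tom+ was Tbx3, a repressor whose expression is highest around the central vein, with a log2 fold change of 1.76 (SE 0.418, edgeR adjusted p = 0.0294). Tbx3 was at 6.85, 14.9 and 8.55 CPM in Tom+ oil and 36.5, 25.5 and 40.7 CPM in Tom+ CCl4, without overlap. The call in Tom- was Hnf4g, a paralog of Hnf4a, which was named after its values were seen since its mean was under 1 CPM. It was at 0 in the 3 Tom- oil libraries and at 0.152 to 0.221 CPM in Tom- CCl4. Between the fractions in CCl4, 1 of the 32 was called, Ppara, the fatty acid sensor, which was at 64.7, 46.1 and 56.5 CPM in Tom- and 115, 85.8 and 90.7 CPM in Tom+ (log2 fold change 0.80, SE 0.156, edgeR adjusted p = 0.0133). In the fit with the replicate block 2 of the 32 were called there, Ppara (0.80, edgeR adjusted p = 2.82e-05) and Tbx3 (1.0, adjusted p = 0.000112). Without the 2 doubted oil libraries, Tbx3 in Tom+ (2.16, edgeR adjusted p = 0.0129) and Ppara between the CCl4 fractions (0.79, adjusted p = 0.0184) were called, Hnf4g was not (adjusted p = 0.1), and Ppara was called lower in CCl4 than in oil in Tom- (-0.76, adjusted p = 0.0193).

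Genes known to depend on the 9 factors were examined in the same fits. Of 24 HNF4A-dependent genes, 1 was called lower and 0 higher in Tom- and likewise in Tom+, with medians of 0.11 and -0.15 on the log2 scale. The gene was Cyp8b1 in both, the sterol 12α-hydroxylase of bile acid synthesis, which is also linked to LRH-1. It was at 151, 231 and 224 CPM in Tom- oil and 31.7, 56.9 and 47.7 CPM in Tom- CCl4, and at 185, 248 and 160 CPM in Tom+ oil and 23.2, 33.7 and 35.2 CPM in Tom+ CCl4. Its log2 fold change was -2.15 (SE 0.266, edgeR adjusted p = 0.000845) in Tom- and -2.69 (SE 0.271, adjusted p = 0.000248) in Tom+. Cyp7a1, the rate-limiting enzyme of bile acid synthesis, was called higher in the summed fractions (1.21, SE 0.241, edgeR adjusted p = 0.0341), which was the only call among the 24 besides Cyp8b1 there. In Tom+ it was at 38.0, 75.4 and 40.6 CPM in oil and 152, 150 and 148 CPM in CCl4. In Tom- it was at 18.5, 39.5 and 73.7 CPM in oil and 53.0, 64.4 and 71.8 CPM in CCl4, with overlap. Cyp8b1 without the 2 doubted oil libraries was called lower in both fractions (-2.32 in Tom-, edgeR adjusted p = 0.00101, and -2.49 in Tom+, adjusted p = 0.00071), and Cyp7a1 higher in Tom+ (1.94, adjusted p = 0.00186). In that fit 2 of the 24 were called lower in Tom+, Cyp8b1 among them. In the summed fractions the Cyp7a1 estimate was then 0.96, from 1 oil pair against 3 CCl4 pairs.

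Of 16 C/EBP-dependent genes, 2 were lower in Tom-, 1 in Tom+ and 2 in the summed fractions, and 0 were higher. In Tom- these were the acute-phase genes Saa1 (log2 fold change -3.05, SE 0.55, edgeR adjusted p = 0.00745) and Saa2 (-3.55, SE 0.787, adjusted p = 0.0183), which resemble each other in sequence and may share reads. Saa1 was at 1975, 1615 and 549 CPM in Tom- oil and 238, 92.2 and 170 CPM in Tom- CCl4. In Tom+ the gene was Cps1, the first enzyme of the urea cycle, at 5303, 5429 and 4423 CPM in oil and 2557, 3051 and 2367 CPM in CCl4 (-0.93, SE 0.138, adjusted p = 0.00123). Leaving out the 2 doubted oil libraries, Saa1 in Tom- (-2.69, edgeR adjusted p = 0.0352) and Cps1 in Tom+ (-0.87, adjusted p = 0.0101) were called, Saa2 in Tom- was not (-3.13, adjusted p = 0.0656), and 0 of the 16 were called in the summed fractions. Without these libraries 2 of the 16 were called lower in Tom+, Cps1 among them. With all libraries the median of the 16 was 0.002 in Tom- and -0.32 in Tom+. Of 9 genes linked to LRH-1 and PROX1, Cyp8b1 was called lower in both fractions. Between the CCl4 fractions, the replicate block gave a median log2 fold change of Tom+ over Tom- below 0 for each list. The medians were -0.25 (HNF4A-dependent), -0.38 (C/EBP-dependent) and -0.32 (LRH-1 and PROX1 linked), beside 0.0043 for all tested genes, with 0 called. Without the block and the 2 doubted oil libraries they were -0.26, -0.40 and -0.35, with 1 gene called higher in the first and last list. Their relation to the levels of the 9 factor genes was not tested.

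Fetal and ductal genes, which adult hepatocytes keep low, were read beside these factors. Of 17 such genes, 10 passed the filter on low counts in the fits by fraction, and CCl4 against oil gave 3 higher and 1 lower in Tom-, and 4 higher and 1 lower in Tom+ (medians 0.82 and 0.80 on the log2 scale, over the genes that passed). Prom1, which encodes a surface protein of progenitor cells, was at 0 to 0.0527 CPM in the 6 oil libraries, at or under the level of 3 counts, and at 3.34, 9.15 and 4.18 CPM in Tom- CCl4 and 6.38, 13.7 and 7.29 CPM in Tom+ CCl4. Afp, the fetal albumin-family gene, was called higher in Tom+ (0.94, SE 0.203, edgeR adjusted p = 0.011), from 2.98, 3.61 and 2.47 CPM in oil to 6.03, 4.56 and 6.85 CPM in CCl4. Spp1, a gene of bile duct cells that injured liver also expresses, was called higher in Tom+ (1.23, SE 0.325, adjusted p = 0.0334). Krt23, a keratin gene, was called lower in both fractions (-2.62, SE 0.788, adjusted p = 0.0453 in Tom- and -3.84, SE 0.893, adjusted p = 0.0226 in Tom+). Leaving out the 2 doubted oil libraries, Prom1 was called in both fractions (edgeR adjusted p = 0.00308 in Tom- and 0.00191 in Tom+) and Afp in Tom+ (1.10, adjusted p = 0.0214), whereas Spp1 in Tom+ (adjusted p = 0.115) and Krt23 (adjusted p = 0.136 in Tom- and 0.0837 in Tom+) were not.

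Genes of the position along the lobule moved in the same comparisons and also between the fractions. Of 10 zone 3 (pericentral) genes, 6 were higher in CCl4 than in oil in Tom+ and 0 in Tom-, and of 9 zone 1 (periportal) genes, 6 were lower in Tom+ and 0 in Tom-. In Tom- the calls went the other way, with the zone 3 gene Oat lower (-2.60, edgeR adjusted p = 0.0347) and the zone 1 gene Aldh1b1 higher (1.05, adjusted p = 0.0113). Leaving out the 2 doubted oil libraries, 8 zone 3 genes were higher and 8 zone 1 genes lower in Tom+, Oat and Cyp2e1 were lower in Tom-, and Aldh1b1 was not called (adjusted p = 0.0507). The summed zone 3 genes were at 1192 to 3066 CPM in Tom+ oil and 4480 to 5771 CPM in Tom+ CCl4, and at 2622 to 5838 and 2168 to 3249 CPM in the Tom- groups. With the replicate block, 7 zone 3 genes were higher and 6 zone 1 genes lower in Tom+ than in Tom- in CCl4, beside 3.98% of all genes called. For the interaction these were 9 and 7, beside 5.48%, and in oil 3 zone 3 genes were lower in Tom+, beside 0.234%. Without the block, no zone 3 gene was called between the CCl4 fractions, and for the interaction Rgn alone was (1.14, edgeR adjusted p = 0.0107). Zone 1 genes called lower without the block included Sds, in CCl4 (-1.39, adjusted p = 0.00625) and in the interaction (-1.58, adjusted p = 0.0276). In oil no gene was called without it. The paper states that this uneven position kept bulk RNA-seq from separating features of p16-high hepatocytes from zonation. The part of these shifts, and of the stellate, endothelial and macrophage markers above, in the levels of the 9 genes was not tested.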

How the data were processed

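Bulk RNA-seq of sorted hepatocytes was analysed in 4 groups of 3 libraries, grouped by the labels. Per the submitters' processing notes, the authors used fastp (0.23.2), HISAT2 (2.1.0) and DESeq2 (1.42.1) with mm10, and the counting program, its strand setting and its annotation release are not given in the sources used here. The deposited values are expected counts of each feature without normalization, and many hold a fraction. They were rounded before tests, whereas whole counts had been planned for. Of 54839 features, 54723 (99.8%) matched a gene symbol.

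Counts were analysed in R (4.3.3) with edgeR (4.0.16): filterByExpr (17121 genes kept), TMM normalization and the robust quasi-likelihood test in 1 fit of 12 libraries with a coefficient per group, and Benjamini-Hochberg adjustment over all genes. A gene was called at an adjusted p under 0.05 and a change of over 0.75 on the log2 scale. For the summed comparison, the Tom+ and Tom- counts of the same treatment and number were added (17743 genes kept). CPM values carry the TMM factor, and TPM values were computed from the deposited counts and lengths. Alternatives used DESeq2 (1.42.0), limma-voom (limma 3.58.1), other filters and scalings, libraries left out, and a replicate block. The main test was checked on simulated data.

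Deviations of same-numbered Tom+ and Tom- libraries from their group means correlated at 0.482, 0.548 and 0.346 in oil and at 0.667, 0.512 and 0.714 in CCl4, so that the numbers were taken to pair the fractions. The pairing comes from the data and the shared numbers, since no source says that a pair is 1 mouse. Whether libraries came from separate mice is not stated either, so p-values measure the spread between these samples.

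The genes and gene lists were chosen with earlier results of these data known. Named by rule were the 9 genes, features overlapping them, the 2 genes most similar to each over the libraries, and up to 3 called genes per list, comparison and direction, the most changed first, from a mean of 1 CPM upwards. Intervals cover counting error and the spread between libraries.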

Additional observations from a re-analysis of the deposited data

Results flagged for a closer look

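Foxa2 was flagged because the same contrast had opposite signs under the 2 treatments by CPM. In all 3 CCl4 pairs Tom+ was lower than Tom-, and in all 3 oil pairs it was the other way round. By TPM the ratios of Tom+ to Tom- in the CCl4 pairs were 1.14, 1.07 and 0.989, so that the single sign was lost. Oil pairs 1 and 2 hold the doubted libraries and do not set a high against a low reporter. The interaction was -0.34 on the log2 scale (edgeR adjusted p = 0.217), and -0.41 (adjusted p = 0.185) with the replicate block and without the oil pairs of the 2 doubted libraries, where the oil part rests on 1 pair. Over all tested genes, 11.8% had opposite signs in this way.

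Hnf4a and Foxa3 were flagged because the difference between fractions differed between treatments by adjusted p with the replicate block, at 0.43 (edgeR adjusted p = 0.036) and 0.53 (adjusted p = 0.0196) on the log2 scale. Tom+ was higher than Tom- in 3 of 3 CCl4 pairs for both genes, and in 1 of 3 oil pairs, the pair that holds no doubted library. Without the oil pairs that hold a doubted library the interaction was 0.15 (adjusted p = 0.537) for Hnf4a and 0.30 (adjusted p = 0.343) for Foxa3, with the oil part again from 1 pair. No group of 4 or more libraries exists here, so no library was examined as an outlier within its group.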

How the results depend on the processing

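None of the 9 genes was called in any of the 6 comparisons under any alternative run. By adjusted p alone, single genes passed in some: CCl4 against oil in Tom+ gave Prox1 at 0.0402 with DESeq2 and at 0.0437 without Tom- oil replicate 3, and the summed fractions gave Cebpa (0.0372) and Prox1 (0.0343) without CCl4 replicate 1. With the replicate block and without the oil pairs of the 2 doubted libraries, Hnf4a (0.0242), Foxa3 (0.00846) and Cebpb (0.0355) passed between the CCl4 fractions. The share of all genes by adjusted p alone was not computed for that alternative. The calls over all genes between fractions moved, with the replicate block, from 336 to 682 in CCl4, from 0 to 40 in oil and from 201 to 938 for the interaction. Replicate numbers are shared between CCl4 and oil without pairing them (same-number correlations 0.0272, 0.107 and 0.00292 in Tom- and 0.226, 0.0109 and 0.302 in Tom+). A replicate block for these gave adjusted p of 0.0192 and 0.0167 for Cebpa in Tom- and Tom+ and 0.0367 in the summed fractions, and 0.0498 for Foxa3 in Tom+.

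Some estimates, none of them called, changed sign under some settings, and the cause was not tested. With limma-voom, Nr5a2 (-0.0103) in CCl4 against oil in Tom+ changed sign. With the replicate block, Nr5a2 (-0.00470) in CCl4 against oil in Tom+, and Onecut1 (-0.0093) in Tom+ against Tom- in CCl4 changed sign. With only the 6 libraries of the comparison, Nr5a2 (-0.000742) in CCl4 against oil in Tom+ changed sign. With DESeq2, Foxa1 (-0.0044) in the summed fractions changed sign. With RLE size factors, Foxa1 (-0.0045) in the summed fractions changed sign. With no expression filter, Foxa1 (-0.0086) in the summed fractions changed sign. Without the 2 doubted oil libraries, Hnf4a (-0.14), Foxa2 (0.048), Foxa3 (-0.20) and Onecut1 (0.44) in the summed fractions, and Cebpa (0.021) in Tom+ against Tom- in oil changed sign. With the replicate block and without the oil pairs of the 2 doubted libraries, chosen after seeing the data, Onecut1 (-0.0016) in Tom+ against Tom- in CCl4, and Hnf4a (0.042), Foxa1 (0.10), Foxa3 (0.0296), Cebpa (0.14), Cebpb (0.24), Nr5a2 (-0.044) and Onecut1 (-0.11) in Tom+ against Tom- in oil, and Onecut1 (0.11) and Prox1 (0.092) in the interaction changed sign. Leaving out each library in turn, the estimates that changed sign ranged as follows: Foxa3 -0.20 to 0.054, Onecut1 -0.20 to 0.16 and Prox1 -0.22 to 0.19 in CCl4 against oil in Tom-, Nr5a2 -0.077 to 0.13 in CCl4 against oil in Tom+, Hnf4a -0.021 to 0.13, Foxa1 -0.047 to 0.045 and Nr5a2 -0.17 to 0.043 in the summed fractions, Cebpa -0.28 to 0.029 and Onecut1 -0.34 to 0.25 in Tom+ against Tom- in CCl4, Cebpa -0.22 to 0.025 in Tom+ against Tom- in oil, Cebpa -0.18 to 0.13 and Cebpb -0.22 to 0.17 in the interaction.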
